A study of Mus musculus with 10 samples.

Results

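The genes described here code for proteins of the outer layers of skin, where keratinocytes turn into the dead, cross-linked cells of the cornified layer, and for some proteins of the hair follicle. They were chosen by name: 32 listed symbols, plus every symbol that starts with Lce, Sprr or Krtap. Of the 128 symbols that this rule finds in the GENCODE M21 annotation, 38 have a row in the table, out of 18047 rows. These are 28 of the 32 listed genes, 5 of 21 Lce genes, 5 of 17 Sprr genes and 0 of 58 Krtap genes. Klk5, Calml3, Alox12b and Dapl1 have no row and were not analysed here. All 38 passed the filter for testing, a mean of at least 10 normalized counts over all 10 libraries, but only 8 had a KO mean of 10 or more, so most passed through the WT libraries.

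The libraries come from 4T1 tumours, grown for 3 weeks in BALB/c mice, and 4T1 is a mammary carcinoma line derived from that strain. In the 5 KO libraries the tumour cells carried a gene knockout, and the 5 WT libraries came from tumours of unmodified 4T1 cells. RNA was taken from frozen sections of the tumours, which may also hold host tissue, and the labels name neither the animal nor the knockout clone behind a library. All 10 carry batch label 1. KO5 and WT1 to WT4 carry the prefix RESUB, which the labels do not explain, and WT2 and WT5 share the library number 170. The table gives normalized counts, read counts divided by a scale factor of each library, and 1 read is worth 0.724 to 1.41 of them. The libraries hold 8609756 (KO1) to 19934428 (WT4) reads. The labels do not say that the libraries of a group are separate animals, so a p-value here measures only how much these samples vary, which may be technical.

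In the epidermis, cells leave the basal layer, switch their keratins, and fill with proteins that are stored in granules or deposited under the membrane. Transglutaminases then cross-link loricrin, involucrin and the small Lce and Sprr proteins into the cornified envelope, filaggrin bundles the keratin filaments, and lipids released from lamellar granules seal the spaces between the cells. Corneodesmosomes hold the dead cells together until proteases cut them and the cells are shed.

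Most of the cornification genes had no or a few reads in the KO tumours and in WT1 and WT4, clear signal in WT2 and WT5, and their highest level in WT3. The 38 genes summed to 529, 511, 689, 887 and 758 normalized counts in KO1 to KO5, against 1287, 2230, 15619, 952 and 6256 in WT1 to WT5. Scaled to the library total, in RPM, that is 43.9, 40.2, 51.3, 63.4 and 54.0 in the KO libraries, against 103, 158, 1366, 66.0 and 478 in the WT libraries. All 5 KO sums lie below all 5 WT sums, but KO4 and WT4 are close, at 63.4 and 66.0 RPM. Of the 952 normalized counts in WT4, 818 came from 7 genes of secreted and cytosolic proteins, Sfn among them. WT1 and WT4 lie much nearer to the KO libraries than to WT3. In bulk tissue, fewer cells of a type and less RNA per cell cannot be told apart, so these sums do not count keratinocytes.

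The number of genes detected also differed between the libraries. With 3 reads as the limit of detection, 11, 12, 10, 11 and 12 of the 38 genes were detected in KO1 to KO5, against 11, 33, 38, 13 and 33 in WT1 to WT5. Of the 38, 17 had 0 reads in every KO library, 23 never reached 3 reads in a KO library, and 21 stayed below 3 reads in all KO libraries and in WT1 and WT4 as well. Only 9 genes had 3 or more reads in all 10 libraries: Asprv1, Tgm1, Lgals7, Lypd3, Sbsn, Serpinb5, Sfn, Krt10 and Krt16. The highest library was WT3 for 36 genes and WT5 for the other 2, Flg2 and Lce1m, and it was a KO library for 0 genes. No gene of the table has a total under 101 reads, and 30 of the 38 had a KO mean under 10. Detection and a peak in the WT libraries were thus largely fixed by this selection, and these counts are descriptive. The share over all genes was not computed.

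**Figure D1:**
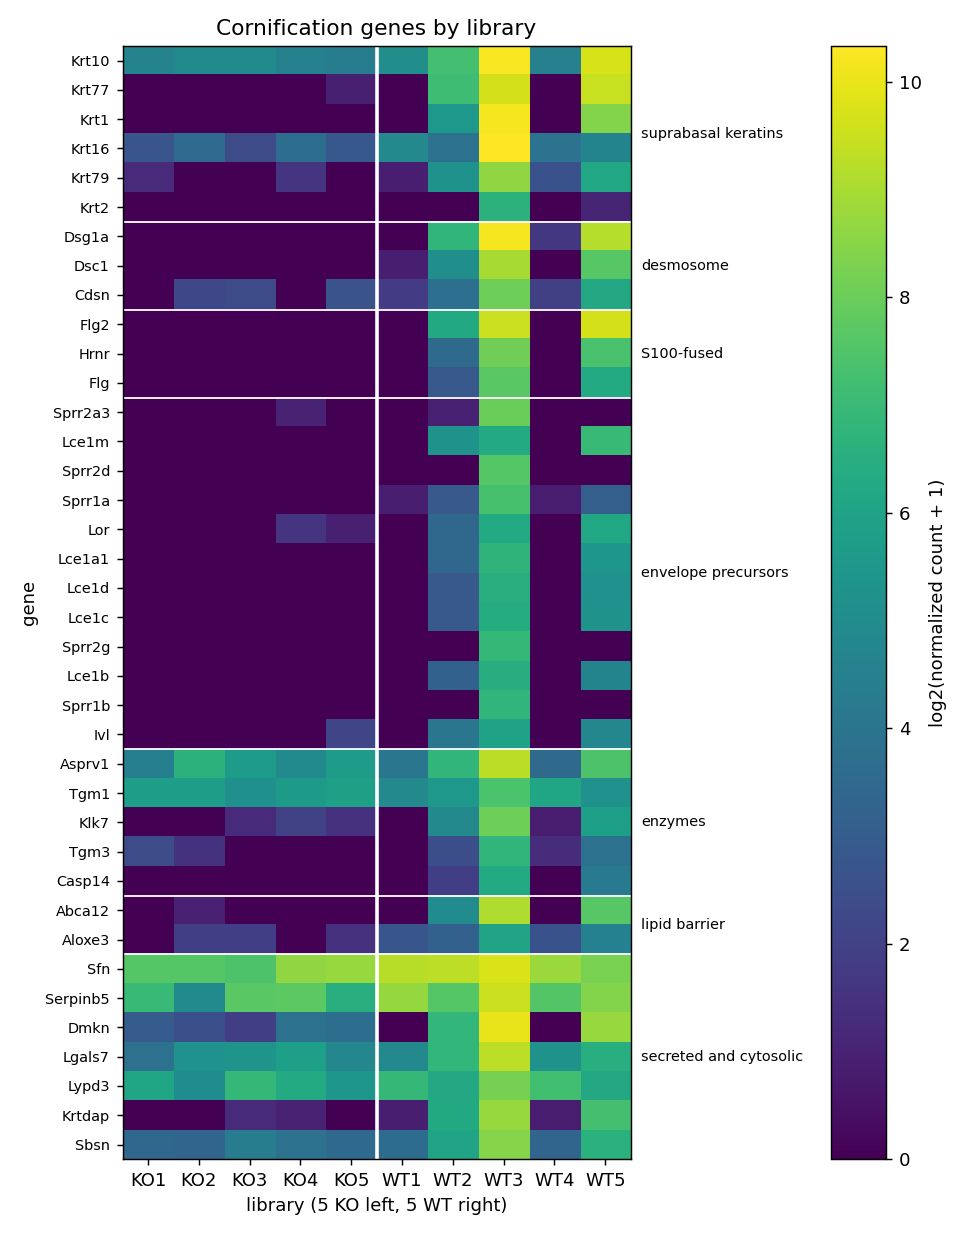
Level of each of the 38 genes (rows, grouped by role) in each library (columns, KO left and WT right of the white line), as log2 of the normalized count plus 1. WT3 is bright over all 38 rows, WT2 and WT5 over 33, and the other 7 libraries only over the 10 to 13 genes that are detected there.

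Despite these differences in level, the test called none of the genes. In limma on the log2 scale, with p-values adjusted over all 17975 tested genes, 0 of 38 passed as lower in KO (background 0.00556% of all tested genes called lower) and 0 as higher. The lowest adjusted p of the 38 was 0.470, for Aloxe3. At an unadjusted p under 0.05, 29 of 38 were lower in KO (background 3.67%) and 0 were higher (background 2.82%). The fitted difference, KO minus WT on the scale of log2(normalized count + 1), was below 0 for 38 of 38 genes (background 51.0%) and at or below -1 for 35 (background 3.27%). As 30 of the 38 had a KO mean under 10 and passed the filter only through WT libraries, lower values for these were largely fixed by the filter, and these counts and the median describe the genes without supporting a direction. The median of the 38 differences was -2.73, against -0.01 over all tested genes, and -1.65 with the genes at 0 in KO set to the floor of 3 reads per library. On this scale the change of a gene with low counts is understated. All KO libraries lay below all WT libraries for Sprr1a, Aloxe3 and Krt16, which are 3 of 38 (background 0.734%). No member was higher in every KO library (background 0.684%). These 3 genes also had KO means under 10 (0, 1.47 and 7.89), so the filter favoured this direction for them. For Sprr1a the gap to KO is 1 read in WT1 and 1 in WT4, under the limit of 3 reads.

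Most of these differences rest on WT2, WT3 and WT5. These are the WT libraries with the highest sums of these genes, so a smaller difference without them was largely fixed by that choice. Without WT2, WT3 and WT5, only 9 of the 38 genes kept a mean of 10 normalized counts. Of these, 6 were lower and 3 higher, with a median of -0.11 and 0 called by limma. At an unadjusted p under 0.05, limma gave 3 lower and 1 higher. With all libraries the same 9 genes ran from -2.66 (Krt10) to -0.18 (Tgm1). The negative binomial test of DESeq2 on the recovered reads called 6 of 38 as lower in KO (Krt1, Krt10, Krt79, Krtdap, Dsg1a and Aloxe3, background 0.529%), 3 to 12 with 1 library left out, and 0 without WT2, WT3 and WT5. It gave no adjusted p for 7 of the genes, the 5 Sprr genes, Krt16 and Krt2. For Krt1 its log2 difference was -25.2, against -10.8 for Dsg1a, which also had 0 reads in every KO library. For the same gene Krt1, edgeR gave -11.3 (edgeR adjusted p = 0.431). With 0 reads in every KO library such a size cannot be estimated, so the DESeq2 call of Krt1 is uncertain. The quasi-likelihood test of edgeR called 0 of 38 (background 0.00556%). Within the libraries with the RESUB prefix, where KO5 is the only KO library, limma gave lower values for 38 of 38, a median of -2.28 and 0 calls. Within the others, where WT5 is the only WT library, it gave lower values for 23 of 24 tested genes, a median of -5.63 and 12 calls, all lower in KO (background 0.142%), among them Krt1, Krt77, Flg2 and Dsg1a. WT5 is itself 1 of the 3 WT libraries rich in these genes. In both fits the lone library is assumed to vary like those of the other group.

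**Figure D2:**
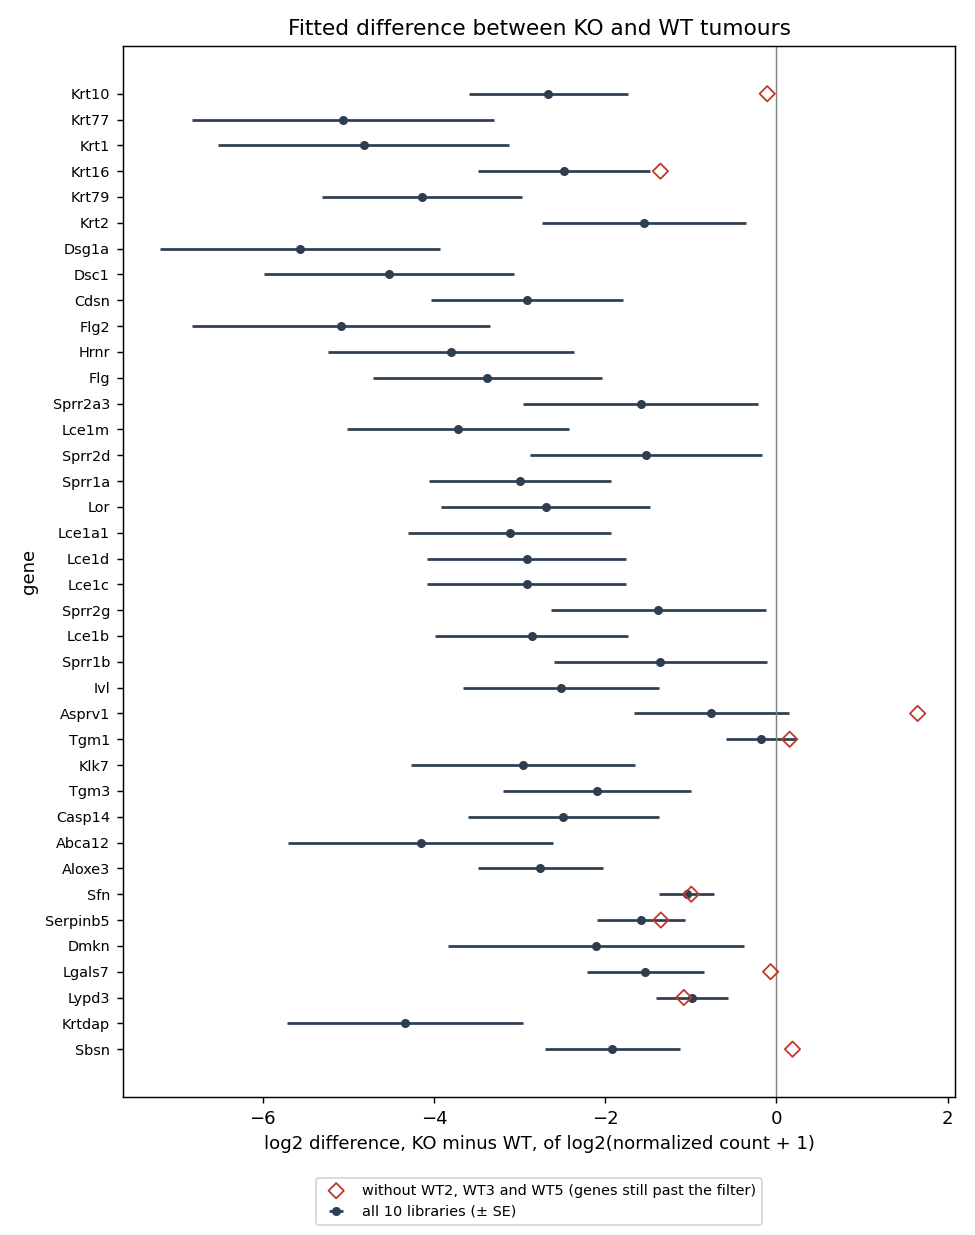
Fitted log2 difference, KO minus WT, of each of the 38 genes with all 10 libraries (filled circles, bars are SE) and, for the 9 genes that still pass the filter, without WT2, WT3 and WT5 (open diamonds). All 38 circles lie left of 0, while the diamonds of Asprv1, Tgm1 and Sbsn lie right of it and those of Krt10 and Lgals7 lie close to it.

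The keratins mark how far a cell has moved through the epidermis. Krt1, which pairs with Krt10 in the layers above the basal one, had 0 reads in all 5 KO libraries, against 0, 44.6, 1152, 0 and 343 normalized counts in WT1 to WT5. Its mean of 308 ± 493 in WT (SD, n = 5) is at least 91.0-fold above the floor of 3 reads per library in KO (log2 difference -4.82 ± 1.70 SE, limma adjusted p = 0.674). Without WT3 the bound was 28.7-fold. The WT libraries fall apart into 3 with Krt1 and 2 without, and the KO libraries overlap those 2.

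Krt10, its partner, had reads in all 10 libraries. It had 23.8, 30.0, 29.5, 22.5 and 20.1 normalized counts in KO1 to KO5, against 33.2, 152, 1191, 21.7 and 833 in WT1 to WT5 (log2 difference -2.66 ± 0.93 SE, limma adjusted p = 0.674). WT4 lies inside the KO range and WT1 just above it, and without WT2, WT3 and WT5 the difference was -0.11. Reads for Krt10 without Krt1 thus occur in 7 of the 10 libraries. Krt10 shares exonic bases with Gm11940 in the annotation, and since no strand setting is known, reads of the pair may be mixed.

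Krt77, another keratin of the suprabasal layers, had 1 read, worth 0.873 normalized counts, in KO5 and 0 in the other KO libraries. In WT1 to WT5 it had 0, 138, 813, 0 and 700 (log2 difference -5.07 ± 1.76 SE, limma adjusted p = 0.674). WT3 lies only slightly above WT5 for this gene, with a WT3 to WT5 ratio of 1.16 (95% counting interval 1.05 to 1.29). Krt1, Krt2, Krt77 and Krt79 lie close together on chromosome 15 from 101810689 to 101940324, while Krt10 and Krt16 lie on chromosome 11.

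Krt16, a keratin of footpads, of the follicle's outer sheath and of wounded or thickened epidermis, had another pattern. It had 5.59, 11.3, 4.22, 12.3 and 6.11 normalized counts in KO1 to KO5, against 28.3, 13.7, 1287, 14.5 and 24.4 in WT1 to WT5 (log2 difference -2.48 ± 1.01 SE, limma adjusted p = 0.7099). Every WT library lies above every KO library, but WT2 and WT5, which hold other epidermal keratins, lie below WT1 for this gene. Without WT2, WT3 and WT5 the difference was -1.36. Of the 50-base windows of Krt16, 37.6% also occur in another annotated gene, mostly Gm11597, so its counts could be split between copies.

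The remaining keratins are Krt79, found in the hair canal and the duct of the sebaceous gland, and Krt2, of the upper spinous and granular layers. Krt79 had 1.40 and 2.04 normalized counts in KO1 and KO4 and 0 in the other KO libraries, against 0.831, 38.3, 394, 5.07 and 72.0 in WT1 to WT5. Krt2 had 0 in all KO libraries and was close to absent outside WT3, which held 99.04 normalized counts, against 1.11 in WT5 and 0 in WT1, WT2 and WT4. Both were highest in WT3.

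The label of hair follicle genes is only thinly covered. No Krtap gene, which code for the matrix proteins of the hair shaft, has a row. Of 30 further genes of the hair shaft and inner root sheath, 2 have one. Padi3, an enzyme that citrullinates hair proteins, had 64.3, 19.7, 43.6, 65.4 and 22.7 normalized counts in KO1 to KO5, against 65.7, 32.8, 35.9, 125 and 65.4 in WT1 to WT5, and S100a3, a calcium-binding protein of the hair cuticle, had 4.09 to 15.7 in KO and 6.65 to 19.1 in WT. Padi3 was highest in WT4 and S100a3 in WT2, and the groups overlap for both.

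The 3 members that belong to the desmosome, the spot-like junction between keratinocytes, or to the corneodesmosome were nearly unread in KO and in WT1 and WT4. They summed to 0 to 5.24 normalized counts in the KO libraries, 3.32 in WT1 and 5.07 in WT4. Dsg1a, the desmosomal cadherin of the upper epidermis, had 0 reads in all KO libraries, against 0, 111, 1158, 2.172 and 576 normalized counts in WT1 to WT5. That is at least 109-fold lower in KO (log2 difference -5.57 ± 1.63 SE, limma adjusted p = 0.504), and at least 51.0-fold without WT3. Of its 50-base windows 35.0% also occur in other genes, mostly its copy Dsg1b.

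Dsc1, the desmocollin that pairs with it, had 0 reads in KO, against 0.831, 34.6, 500.1, 0 and 200.5 normalized counts in WT1 to WT5, and was at least 43.5-fold lower in KO, or 17.4-fold without WT3. Cdsn, corneodesmosin, which glues the dead cells together, had 0, 3.75, 4.22, 0 and 5.24 normalized counts in KO1 to KO5, against 2.49, 12.8, 261, 2.90 and 75.3 in WT1 to WT5. For Cdsn the KO libraries reach above WT1 and WT4, so the groups overlap.

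The S100-fused proteins are large repeat proteins of the granular layer, and their 3 genes had no read in the KO tumours. The summed level of Flg, Flg2 and Hrnr was 0 in all 5 KO libraries, against 0, 94.7, 1192, 0 and 1057 normalized counts in WT1 to WT5. Flg2, filaggrin-2, had 0, 77.4, 716, 0 and 815 in WT1 to WT5 and was at least 95.1-fold lower in KO (log2 difference -5.09 ± 1.74 SE, limma adjusted p = 0.669), or 58.6-fold without WT5. WT5 lies above WT3 for Flg2, with a WT3 to WT5 ratio of 0.878 (95% counting interval 0.791 to 0.973).

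Hrnr, hornerin, had 0 in KO, against 0, 10.9, 269.9, 0 and 162.8 normalized counts in WT1 to WT5. Flg, filaggrin itself, had 0 in KO, against 0, 6.38, 207, 0 and 78.6. The bounds on the difference were 26.2-fold for Hrnr and 17.3-fold for Flg, each at least that much lower in KO, and 12.8-fold and 6.28-fold without WT3. Per kilobase of exon, Flg2 was the highest of the 3 in WT2, WT3 and WT5, at 3.72, 34.4 and 39.2 normalized counts per kb.

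The precursors of the cornified envelope split into a set shared by WT2, WT3 and WT5 and a set seen almost only in WT3. In the first set, the 5 Lce1 genes, which code for late envelope proteins, summed to 0 in every KO library, against 0, 69.2, 439, 0 and 269 normalized counts in WT1 to WT5. Lce1m, the most abundant of them, had 0 in KO, against 0, 38.3, 78.7, 0 and 127 in WT1 to WT5 (log2 difference -3.72 ± 1.30 SE, limma adjusted p = 0.674). It was highest in WT5, while Lce1a1, Lce1b, Lce1c and Lce1d were highest in WT3 at 83.5 to 103. Lor, loricrin, had 2.04 and 0.873 normalized counts in KO4 and KO5 and 0 in the other KO libraries, against 0, 10.02, 79.6, 0 and 72.0 in WT1 to WT5.

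In the second set, the small proline-rich genes of the Sprr2 group, which are known to be induced in stressed and wounded epithelium, summed to 1.02 normalized counts in KO4 and 0 in the other KO libraries, against 0, 0.911, 572, 0 and 0 in WT1 to WT5. Sprr2a3 had 1.02 normalized counts in KO4 and 0 in the other KO libraries, against 0, 0.911, 257, 0 and 0 in WT1 to WT5, and Sprr2d had 196 in WT3 and 0 in the other 9 libraries. Sprr2g and Sprr1b had 118 and 110 in WT3 and also 0 in the other 9. Sprr1a had 0 in KO, against 0.831, 6.38, 159, 0.724 and 7.75 in WT1 to WT5, so WT3 stands far above the rest for all 5 Sprr genes. Of the 50-base windows of Sprr2a3, 61.1% also occur in other genes, mostly Sprr2a1, and 19.9% to 25.4% of those of Lce1a1, Lce1b, Lce1c and Lce1d, so single values in these families are uncertain.

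Ivl, involucrin, an early envelope protein, had 3.49 normalized counts in KO5 and 0 in the other KO libraries, against 0, 15.5, 60.2, 0 and 26.6 in WT1 to WT5. In KO5 this is 4 reads, the only envelope precursor above 2 reads in a KO library. Over all 12 precursors, the fit gave lower values in KO for 12 (background 51.0%), with a median of -2.78. Of these, 8 had an unadjusted p under 0.05 (background 3.67%) and 0 were called by limma, edgeR or DESeq2. DESeq2 gave no adjusted p for the Sprr genes among them. All 12 passed the filter only through WT libraries, so lower values in KO were largely fixed by the filter.

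Of the 38 genes, 15 lie in the epidermal differentiation complex, the cluster of cornification genes on chromosome 3, between 92080271 (Lor) and 93333570 (Hrnr), a span of 1253 kb. In all, 24 rows of the table fall there. Of the 5 other coding genes, Prr9, a proline-rich protein, was read in every library, with 16.8, 10.3, 8.44, 10.2 and 52.4 normalized counts in KO1 to KO5, against 15.8, 35.5, 65.1, 8.69 and 32.1 in WT1 to WT5. Its KO5 value lies above WT2 and WT5. The others include Kprp, a keratinocyte proline-rich protein, with 0 in every KO library, against 0, 15.5, 158, 0 and 102 normalized counts in WT1 to WT5. Crct1, a cysteine-rich protein of the same cluster, had 2.62 in KO5 and 0 in the other KO libraries, against 0, 32.8, 133, 0 and 33.2 in WT1 to WT5. The 4 pseudogenes between them were read in all 10 libraries, and Gm5850, the most abundant, had 112 to 209 normalized counts in KO and 134 to 174 in WT.

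The promoters of 6 genes are shown because their genes stand for the patterns above: Krt10 is the abundant partner keratin, Lor, Flg2 and Lce1m were present in WT2, WT3 and WT5, and Sprr1b and Sprr2d were read in WT3 only. Each runs 5′ to 3′ on the gene's strand from 250 bases before to 50 bases after the start, from the RefSeq promoter table on GRCm38.p6. Capitals mark the motifs TATAAA, the TATA box core, and TGANTCA, a motif of AP-1 type, both searched on both strands. The windows are chr11:99389315-99389614 on the minus strand for Krt10, chr3:92083093-92083392 (minus) for Lor, chr3:93197023-93197322 (plus) for Flg2, chr3:93019012-93019311 (minus) for Lce1m, chr3:92438730-92439029 (minus) for Sprr1b and chr3:92338890-92339189 (plus) for Sprr2d.
Krt10: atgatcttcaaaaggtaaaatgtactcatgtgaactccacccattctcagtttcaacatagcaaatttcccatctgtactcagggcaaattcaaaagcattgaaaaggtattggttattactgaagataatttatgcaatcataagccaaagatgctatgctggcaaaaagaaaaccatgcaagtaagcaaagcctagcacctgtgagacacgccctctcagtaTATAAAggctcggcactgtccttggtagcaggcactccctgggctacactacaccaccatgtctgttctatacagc
Lor: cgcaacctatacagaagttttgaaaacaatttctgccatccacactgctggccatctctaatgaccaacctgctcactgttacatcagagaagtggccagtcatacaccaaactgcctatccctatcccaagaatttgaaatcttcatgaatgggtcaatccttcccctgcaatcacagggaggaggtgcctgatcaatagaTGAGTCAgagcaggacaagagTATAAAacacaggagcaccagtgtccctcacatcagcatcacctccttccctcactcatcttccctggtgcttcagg
Flg2: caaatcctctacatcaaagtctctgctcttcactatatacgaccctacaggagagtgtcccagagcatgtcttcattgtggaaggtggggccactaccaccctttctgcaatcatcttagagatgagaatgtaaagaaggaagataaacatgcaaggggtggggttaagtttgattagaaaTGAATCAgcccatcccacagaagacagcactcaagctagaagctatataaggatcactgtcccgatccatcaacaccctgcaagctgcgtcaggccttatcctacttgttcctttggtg
Lce1m: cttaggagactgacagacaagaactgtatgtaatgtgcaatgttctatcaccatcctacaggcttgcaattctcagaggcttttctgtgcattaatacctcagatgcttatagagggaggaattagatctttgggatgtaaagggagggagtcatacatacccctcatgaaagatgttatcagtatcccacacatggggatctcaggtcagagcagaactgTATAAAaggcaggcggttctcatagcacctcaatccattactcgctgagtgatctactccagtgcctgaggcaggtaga
Sprr1b: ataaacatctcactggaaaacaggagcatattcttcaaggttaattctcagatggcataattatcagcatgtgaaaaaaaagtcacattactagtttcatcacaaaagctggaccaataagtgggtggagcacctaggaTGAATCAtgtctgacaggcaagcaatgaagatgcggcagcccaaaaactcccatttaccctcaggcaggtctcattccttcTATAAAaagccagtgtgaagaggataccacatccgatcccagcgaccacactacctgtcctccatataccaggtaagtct
Sprr2d: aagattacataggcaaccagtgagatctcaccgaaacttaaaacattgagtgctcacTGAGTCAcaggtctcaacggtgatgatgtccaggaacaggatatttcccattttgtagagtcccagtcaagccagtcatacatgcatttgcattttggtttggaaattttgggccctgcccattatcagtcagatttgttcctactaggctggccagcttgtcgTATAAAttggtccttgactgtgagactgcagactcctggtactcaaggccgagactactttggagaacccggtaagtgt

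The TATAAA match begins at position -26 from the start in Krt10, -27 in Lor, -29 in Lce1m and Sprr2d and -30 in Sprr1b, and Flg2 has none. The TGANTCA match begins at -48 in Lor, -69 in Flg2, -111 in Sprr1b and -193 in Sprr2d, and Krt10 and Lce1m have none. Of the 38 genes, 32 matched a window in the table. TATAAA occurs in 12 of the 32 windows (37.5%), against 13.6% of all 32851 windows, and TGANTCA in 11 of 32 (34.4%), against 7.81%. Both occur together in Flg, Ivl, Krtdap, Lor, Sprr1a, Sprr1b and Sprr2d, which are 7 of 32, against 1.54% of all windows. A match describes the letters only, and was not tested for any effect on the levels.

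The enzymes that build and take apart the cornified layer were less uniform. Tgm1, the membrane-bound transglutaminase that starts cross-linking, was the gene with the smallest difference of the 38. It had 54.5, 53.5, 35.2, 49.1 and 57.6 normalized counts in KO1 to KO5, against 28.3, 44.6, 168.95, 68.8 and 36.6 in WT1 to WT5 (log2 difference -0.18 ± 0.41 SE, limma adjusted p = 0.974). The KO libraries lie inside the WT range, and without WT3 the difference was 0.22. Tgm1 shares exonic bases with Gm49067 in the annotation.

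Asprv1, an aspartic protease that trims profilaggrin, had 20.97, 98.5, 50.6, 28.6 and 49.8 normalized counts in KO1 to KO5, against 15.8, 109, 619, 10.9 and 173 in WT1 to WT5. All 5 KO libraries were above WT1 and WT4, and the fitted difference of -0.76 ± 0.91 (SE, limma adjusted p = 0.951) was 1.65 without WT2, WT3 and WT5. Its KO reads occur without those of Flg, the precursor it is known to cut.

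Klk7, a protease of shedding, had 0, 0, 1.41, 3.07 and 1.75 normalized counts in KO1 to KO5, against 0, 28.2, 267, 0.724 and 56.5 in WT1 to WT5. Tgm3, the transglutaminase of the later steps and of hair, had 4.19, 1.88, 0, 0 and 0 normalized counts in KO1 to KO5, against 0, 4.55, 110, 1.45 and 13.3 in WT1 to WT5. Casp14, a protease of terminal differentiation, had 0 in KO, against 0, 2.73, 79.6, 0 and 17.7. All 3 follow the order WT3, WT5, WT2, and their KO libraries overlap WT1 and WT4.

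The lipid barrier is represented by Abca12, the transporter that loads lipids into lamellar granules, and by Aloxe3, a lipoxygenase that modifies barrier ceramides. Abca12 had 0.938 normalized counts in KO2 and 0 in the other KO libraries, against 0, 31.0, 541, 0 and 200.5 in WT1 to WT5. Aloxe3 had 0, 2.81, 2.81, 0 and 1.75 in KO1 to KO5, against 5.82, 8.20, 64.1, 5.07 and 22.2 in WT1 to WT5 (log2 difference -2.76 ± 0.73 SE, limma adjusted p = 0.470). All KO values of Aloxe3 lie below all WT values, though the KO values stand for 3 reads or fewer.

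The secreted and cytosolic proteins of differentiating keratinocytes held most of the reads left in the KO tumours. As a share of all reads of the 38 genes, these 7 genes took 60.4% (KO2) to 86.4% (KO4) in the KO libraries, against 91.0%, 56.5%, 27.5%, 85.9% and 23.6% in WT1 to WT5. Wilson 95% intervals, which cover counting error only, ran from 56.2% to 64.4% for KO2 and from 26.9% to 28.2% for WT3. By this share, WT1 and WT4 resemble the KO libraries and WT3 and WT5 stand together.

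Sfn, 14-3-3 sigma, an adaptor protein of many epithelia, led them. It had 193, 194, 174, 391 and 430.4 normalized counts in KO1 to KO5, against 598, 627, 848, 437 and 305 in WT1 to WT5 (log2 difference -1.05 ± 0.32 SE, limma adjusted p = 0.562). WT5 lies inside the KO range, the other WT libraries above it, and without WT2, WT3 and WT5 the difference was nearly the same at -1.0. Per kilobase of exon it was the highest of the 38 genes in every KO library, at 108 to 267 normalized counts per kb, and in WT1, WT2 and WT4.

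Serpinb5, the serpin maspin of epithelial cells, had 126, 30.0, 205, 213 and 89.0 normalized counts in KO1 to KO5, against 413, 191, 732, 187 and 342 in WT1 to WT5 (log2 difference -1.58 ± 0.51 SE, limma adjusted p = 0.603). KO3 and KO4 lie between the WT libraries, so the groups overlap, and the difference was -1.35 without WT2, WT3 and WT5. Lypd3, a membrane-anchored protein of the suprabasal layers, had 31.9 to 118 normalized counts in KO and 73.8 to 295 in WT, with -0.99 over all libraries and -1.08 without the 3. For Sfn, Serpinb5 and Lypd3 the difference was thus about as large without the libraries rich in cornification reads, although limma called none of them.

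Lgals7, galectin-7, a lectin of stratified epithelia, had 14.0, 38.5, 39.4, 56.2 and 26.2 normalized counts in KO1 to KO5, against 28.3, 112, 629, 39.1 and 88.6 in WT1 to WT5. Its difference of -1.53 ± 0.68 (SE, limma adjusted p = 0.754) was -0.07 without WT2, WT3 and WT5. Sbsn, suprabasin, had 9.38 to 19.7 normalized counts in KO and 9.41 to 350 in WT, and its difference of -1.92 was 0.19 without those 3. WT1 and WT4 lie inside the KO range for both genes.

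Dmkn, dermokine, and Krtdap, a small secreted peptide, lie next to Sbsn on chromosome 7. Dmkn had 6.99, 4.69, 2.81, 13.3 and 12.2 normalized counts in KO1 to KO5, against 0, 115, 1018, 0 and 419.8 in WT1 to WT5, so every KO library was above WT1 and WT4. Krtdap had 1.41 and 1.02 in KO3 and KO4 and 0 in the other KO libraries, against 0.831, 77.4, 431, 0.724 and 154 in WT1 to WT5. DESeq2 called Krtdap and Krt79 with all libraries and with each WT library left out in turn.

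**Figure D3:**
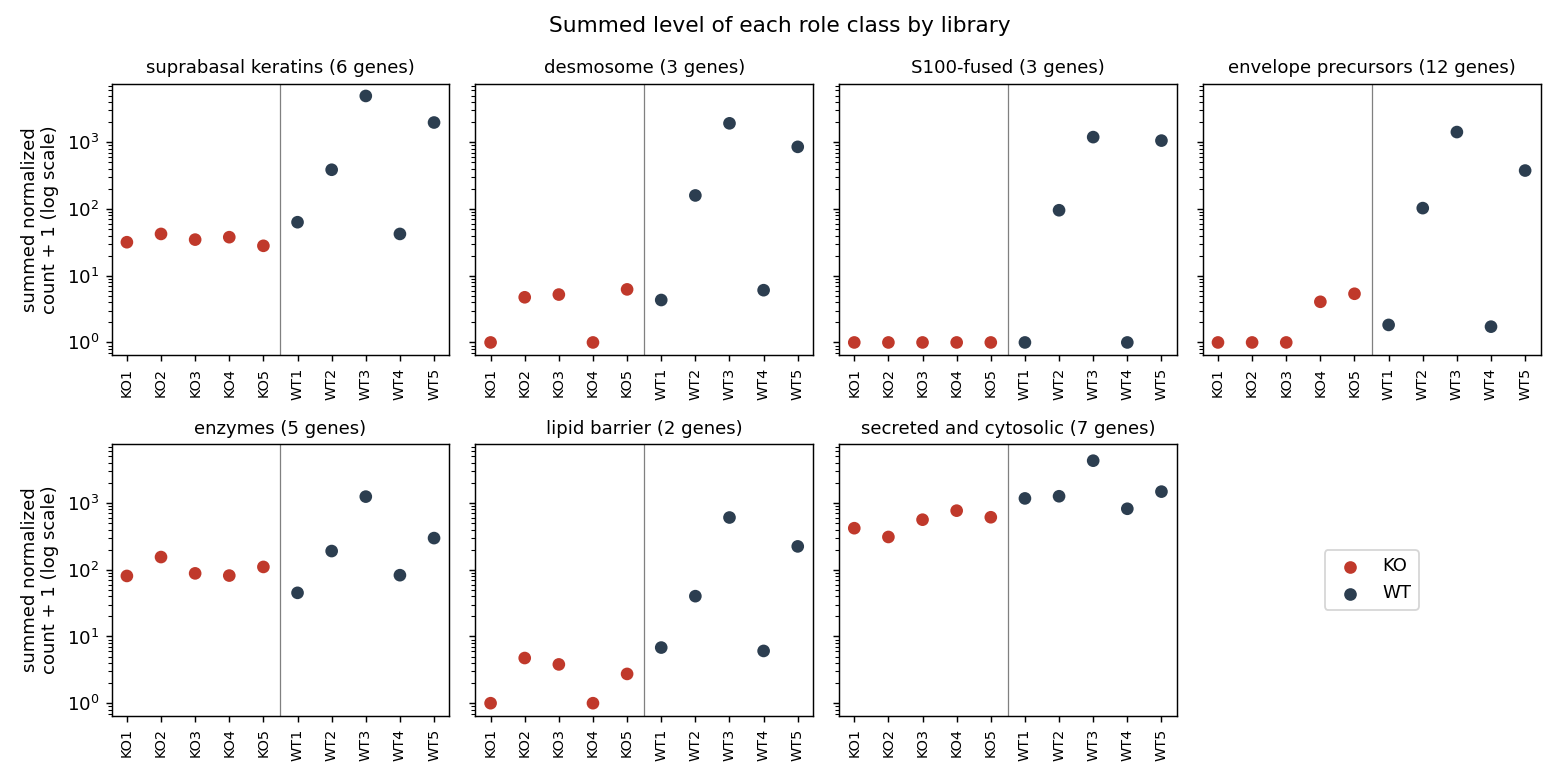
Summed normalized count plus 1 of each role class (log axis) in the 5 KO libraries (red) and 5 WT libraries (dark). The S100-fused, envelope, desmosome and lipid classes lie between 0 and 5.24 normalized counts in KO and reach 605 (lipid) to 1919.7 (desmosome) in WT3, while the secreted and cytosolic class holds 309 to 766 in KO and 818 to 4303 in WT.

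WT2, WT3 and WT5 did not hold the same mix of epidermal transcripts. Over the 33 genes with 3 or more reads in WT5, the WT3 to WT5 ratio had a median of 2.78, from 0.617 for Lce1m to 52.8 for Krt16. The WT3 to WT2 ratio had a median of 9.46 over 33 genes and the WT5 to WT2 ratio one of 3.33. The 95% counting intervals of the WT3 to WT5 ratio, 0.459 to 0.828 for Lce1m and 34.7 to 84.5 for Krt16, are far apart, so no single ratio describes the 38 genes.

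The gene pairs that stand for stages gave different readings in the 3 libraries. The ratio of Flg2, a granular layer gene, to Krt1, a spinous layer gene, was 1.73 in WT2, 0.621 in WT3 and 2.37 in WT5. The ratio of Flg2 to Krt10 was 0.509, 0.601 and 0.979 in WT2, WT3 and WT5, and that of Flg to Krt1 was 0.143, 0.180 and 0.229. The ratio of Lor to Krt1 was 0.224, 0.0691 and 0.210. As point values, the order of WT2 and WT3 thus differs between the pairs. No interval was computed for these ratios. In WT2 they rest on 7 reads of Flg, 11 of Lor, 49 of Krt1, 85 of Flg2 and 167 of Krt10. Whether the smaller gaps between WT2 and WT3 exceed counting error was not tested. The ratio of Krt1 to the basal keratin Krt5 was 0.212, 0.570 and 1.28, and that of Krt10 to Krt5 was 0.723, 0.590 and 3.09. The ratio of Krt16 to Krt10 was 0.0898, 1.08 and 0.0293. WT5 was thus the highest of the 3 in both ratios to Krt5, and WT3 in the ratio of the stress-type Krt16 to Krt10.

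The role classes also took different shares of the reads of the 38 genes in these libraries. The S100-fused genes took 0% of these reads in each KO library, where 0 reads allow at most 0.441% (KO4 and KO5) to 1.01% (KO1) by the Wilson interval. They took 4.25%, 7.63% and 16.9% in WT2, WT3 and WT5, with Wilson 95% intervals of 3.52% to 5.12%, 7.23% to 8.05% and 15.9% to 17.9%. The envelope precursors took 4.57%, 9.09% and 6.002% in the same libraries, so WT5 had the highest share of S100-fused genes and WT3 of envelope precursors.

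**Figure D4:**
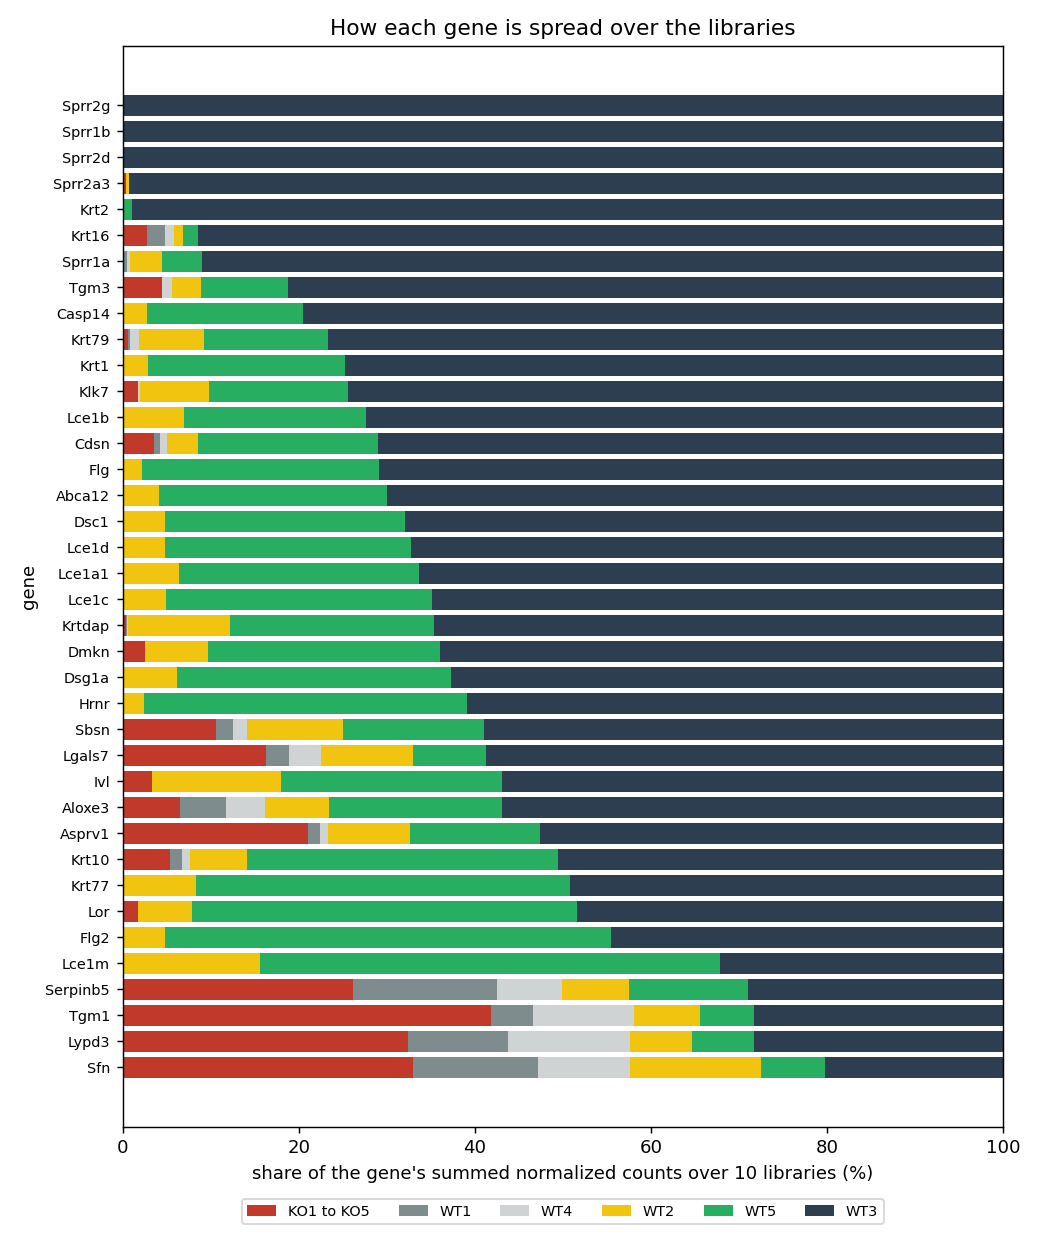
Share of each gene's summed normalized counts over the 10 libraries that falls in the 5 KO libraries together (red), WT1, WT4 (greys), WT2 (yellow), WT5 (green) and WT3 (dark). The Sprr genes, Krt2 and Krt16 are nearly all WT3, Flg2 and Lce1m have their largest part in WT5, and Sfn, Lypd3, Tgm1 and Serpinb5 are spread over all libraries.

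By gene, WT2, WT3 and WT5 together held at least 99% of the summed counts for 21 of the 38 genes, at least 90% for 30 and at least 50% for 35. The 3 genes below that were Tgm1, Lypd3 and Sfn. These are shares of sums over libraries that were normalized by the authors, and they describe these 10 libraries only.

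Other lists of keratinocyte genes followed WT2, WT3 and WT5 only in part. Of 13 basal layer genes, all tested, the fit gave lower values in KO for 11, a median log2 difference of -1.22, 7 at an unadjusted p under 0.05 and 0 called by limma or edgeR, while DESeq2 called 4 as lower. The background for this and the lists below is 51.0% with lower fitted values in KO. It is 3.67% lower at an unadjusted p under 0.05 in limma, and 0.529% called lower by DESeq2. Dst and Itga6, among the most abundant of them, which code for parts of hemidesmosomes, had differences of 0.19 and 0.08, and their levels did not follow the cornification genes. Krt14, a basal keratin, had 264, 173, 335, 381 and 326 normalized counts in KO1 to KO5, against 1134, 616, 4869, 422 and 825 in WT1 to WT5, and Dsc3, a desmocollin of the lower layers, had 0 in all KO libraries, against 0.831, 71.9, 1326, 0 and 449.7. The summed level of the 13 was 11431 to 32810 in KO and 10633 to 33064 in WT, so the list as a whole overlaps between the groups.

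Of the stress keratins, Krt6a and Krt6b were found almost only in WT3, and Krt17 was read in every library. Krt6b had 0 in all KO libraries, against 0, 0.911, 3174, 0 and 6.65 normalized counts in WT1 to WT5. Krt6a had 1.40 and 3.07 in KO1 and KO4 and 0 in the other KO libraries, against 0, 6.38, 1967, 0 and 23.3. Krt17 had 22.4, 15.0, 33.7, 36.8 and 62.0 in KO1 to KO5, against 19.1, 35.5, 1133, 18.1 and 60.9, so WT3 stands far above the rest, as it does for Krt16 and the Sprr genes. The part of wounded, inflamed or thickened skin in this was not tested. All 3 had lower fitted values in KO, their median was -3.03, 0 called and 0 at an unadjusted p under 0.05, and edgeR and DESeq2 also called 0 of them. Of the 50-base windows of Krt6a and Krt6b, 45.7% and 50.1% are shared, mostly with each other.

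Of 11 tested transcription factors of keratinocytes, the fit gave lower values in KO for 11, a median of -0.72, 6 at an unadjusted p under 0.05, 0 called by limma or edgeR and 1 called as lower by DESeq2. Gata3 and Tfap2a, among the most abundant, had -0.36 and -0.16. Of 13 tested genes of barrier lipid synthesis, 12 had lower values, the median was -0.38, 5 at an unadjusted p under 0.05, 0 called by limma or edgeR and 3 called as lower by DESeq2. Ugcg and Abhd5, which are used by most cells, had -0.01 and 0.13, whereas Elovl4, the elongase of very long skin lipids, had 0, 2.81, 4.22, 1.02 and 0 normalized counts in KO1 to KO5, against 4.16, 228, 942, 0 and 312 in WT1 to WT5. Spink5, an inhibitor of the skin's kallikreins, had 2.81 and 1.02 in KO3 and KO4 and 0 in the other KO libraries, against 1.66, 100.2, 444, 0 and 232. Of 5 listed protease inhibitors of the skin surface, Spink5 among them, 3 have a row, with 2 lower and 1 higher in the KO fit. The higher 1, Serpinb2, had 103, 104, 23.9, 58.2 and 223 normalized counts in KO1 to KO5, against 47.4, 54.6, 304, 7.24 and 64.2 in WT1 to WT5. Its log2 difference was 0.61 ± 0.79 (SE, limma adjusted p = 0.955), and the groups overlap. Elovl4 and Spink5 were named after their values were seen.

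Lists of the other tissues a section may hold were also mostly lower in the KO fit, but peaked in other libraries. Of the 10 skeletal muscle genes, 10 had lower fitted values in KO (median log2 difference -2.13, 0 at an unadjusted p under 0.05 and 0 called by limma). They summed to 475 to 6662 normalized counts in KO and to 12464, 128450, 226, 6509 and 13785 in WT1 to WT5, so WT3, the richest in cornification genes, was the lowest of all 10 libraries in muscle. Of the 7 adipocyte genes, 6 had lower values (median -1.50, 1 at an unadjusted p under 0.05 and 0 called by limma). They summed to 491 to 5010 in KO and 604 to 8951 in WT, with WT2 at the top. Of the sebaceous gland list, 4 of 7 genes have a row, with sums of 2371 to 3410 in KO and 2157 to 3991 in WT, most of it from Soat1, which many cells use. No mucosal keratin of the 4 listed has a row. Of the 9 genes of simple epithelium and carcinoma, the tumour's own class, 9 had lower values in KO, 7 at an unadjusted p under 0.05 and 0 called by limma. Their median difference was -0.82, and -1.42 without WT2, WT3 and WT5. They summed to 13578 to 19759 in KO and 19029 to 35449 in WT and were highest in WT4, and how much of the skin genes' pattern moves with them was not tested.

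**Figure D5:**
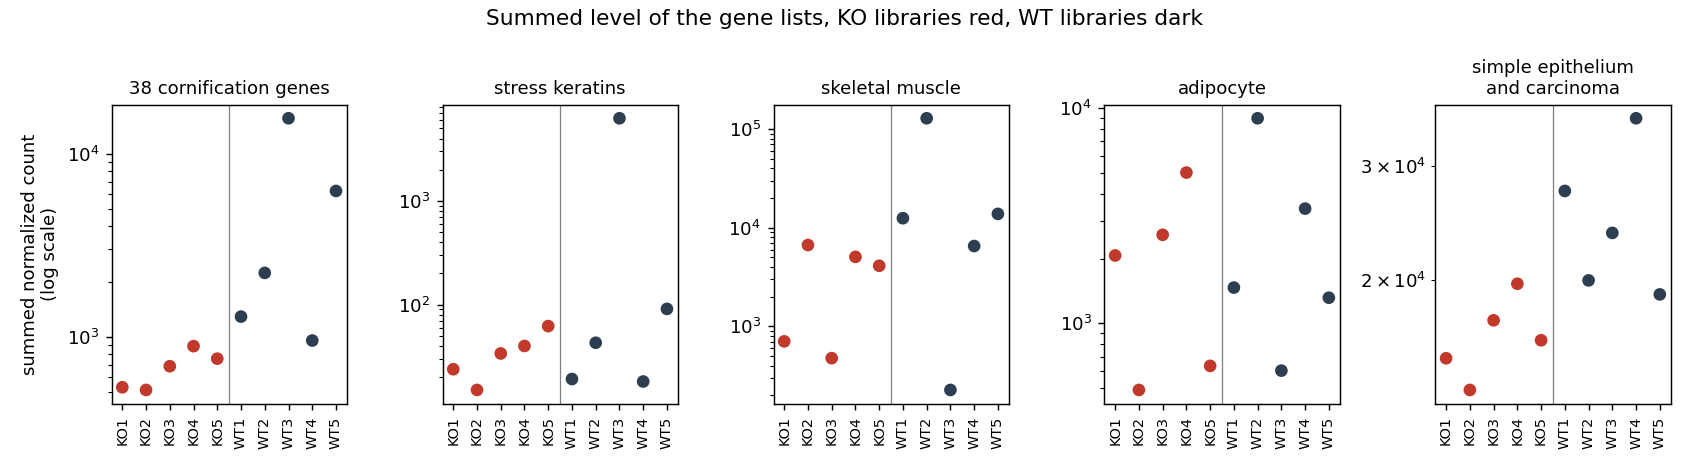
Summed normalized counts (log axes with separate ranges) of the 38 cornification genes and of 4 other gene lists in the KO (red) and WT (dark) libraries. WT3 is the highest library for the cornification genes and the stress keratins and the lowest for skeletal muscle, and WT2 is the highest for muscle and adipocyte genes.

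The genes most like the summed 38 in their spread over the 10 libraries were also sought. Likeness was the overlap of the 2 profiles, the sum over libraries of the smaller share of the gene's counts, which is 100% for identical profiles and had a median of 45.7% over 17845 genes that are not members. The 10 highest were Scel (92.6%), Cers3 (91.5%), Clca3a2 (90.8%), Ankrd35 (90.7%), Trp63 (90.5%), Cldn1 (89.7%), Krt15 (89.1%), Trim29 (89.0%), Gadl1 (88.7%) and Fam25c (87.7%). Scel, sciellin, a protein of the cornified envelope, had 11.2, 12.2, 11.2, 11.2 and 6.98 normalized counts in KO1 to KO5, against 12.5, 40.1, 209.7, 10.1 and 105 in WT1 to WT5. Cers3, a ceramide synthase of the skin barrier, had 2.80 to 7.15 in KO and 10.1 to 90.3 in WT, without overlap (background 0.734% of all tested genes). As these 10 genes were sought by likeness to a profile that is high in WT, low KO values were largely fixed by that choice. Trp63, the p63 transcription factor of basal keratinocytes, had 8.73 to 56.2 in KO and 30.8 to 518 in WT. This likeness is a description over 10 libraries, and WT3 and WT5 weigh most in it.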

How the data were processed

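RNA of 10 tumour libraries (5 KO and 5 WT, by the genotype in the labels) was freed of ribosomal RNA and sequenced, per the labels' protocols. The authors deposited 1 table of signal values per gene, which are read counts divided by a scale factor, for 18047 Ensembl IDs. Each value equals a whole number of reads times the worth of 1 read in its library, to within 0.0001 reads (100% of values), so reads could be recovered. The submitters' processing notes name bcl2fastq 2.17 and the build GRCm38. The aligner, the counter, strand and the handling of molecular identifiers are not given in the sources used here, so intervals and floors cover counting error only. No gene has a total under 101 reads. Unmapped columns numbered 0. Symbols and coordinates come from GENCODE M21 (GRCm38), which gave 17953 IDs a symbol.

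KO was compared with WT by limma 3.58.1 in R 4.3.3 (intensity trend, log2 of the normalized count plus 1, two-sided) over the 17975 genes whose mean was 10 or more, with Benjamini-Hochberg adjustment at 0.05. edgeR 4.0.16 and DESeq2 1.42.0 on the recovered reads were alternatives, as were other pseudocounts, filters, scalings, covariates and left-out libraries. Bounds for a gene at 0 in KO set each KO library to 3 reads. Intervals are at 95%. Levels per kilobase use the union of a gene's exons.

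Genes given in every library are, in each role class, up to 4 members with the highest mean over all libraries, and of each other list up to 3, plus the 10 further genes with the highest overlap of library shares. Where a gene beyond these has its values printed, it was chosen after they were seen. Members, lists and tests were chosen with earlier results of these data known. Alternatives by the RESUB prefix, with a 3-read floor, with DESeq2 or edgeR on fewer libraries, and bounds without 1 WT library were added after the data were seen. The level of the knocked-out gene is not reported here. WT2 and WT5, which share the number 170, had a chi-square per degree of freedom of 147, within the 39.0 to 182 of all WT pairs, and were kept apart. Plots used matplotlib 3.10.9 (Python 3.11.15).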

Additional observations from a re-analysis of the deposited data

Results flagged for a closer look

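Values far from the others of their group were looked for with Dixon's ratio, the gap of the extreme library to its neighbour divided by the group's range, whose 95% critical value for 5 libraries is 0.71. Of the 53 groups of 5 libraries looked at, those with at least 1 library at 3 reads, 19 passed. The genes share libraries, so these are not 19 separate events. The critical value is made for normal values, while these are counts of genes that mostly passed the filter through WT libraries. For genes with almost no reads outside WT3, such as Sprr1b and Krt2, a high ratio was fixed by passing the filter. The number passed is therefore not compared with chance. In 18 of them the extreme library was WT3, the highest WT library. The ratio was 1.000 for Sprr1b, Sprr2d and Sprr2g, 0.9965 for Sprr2a3, 0.9888 for Krt2, 0.9885 for Krt16, 0.9557 for Sprr1a, 0.8789 for Tgm3, 0.8606 for Lgals7 and 0.8191 for Krt79. It was 0.7884 for Klk7, 0.7774 for Casp14, 0.7476 for Sbsn, 0.7339 for Asprv1, 0.7185 for Cdsn, 0.7148 for Lce1b, 0.7120 for Tgm1 and 0.7105 for Aloxe3. The 1 KO case was Ivl, at 1.000, where KO5 held 4 reads and the other KO libraries 0. The cause of the level of WT3 was not tested.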

How the results depend on the processing

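Limma called 1 gene of all tested, 0 with WT2 and WT5 averaged, without WT2, WT3 and WT5, or within the RESUB-prefixed libraries, and 26 within the others. DESeq2 called 121 (105 without WT2, WT3 and WT5) and edgeR 1 (0 without those 3). With 1 library left out the count ran from 0 to 159 over limma (0 to 3) and DESeq2 (43 to 159). Of the members, limma called 0 in the fits run, except for 12 within the unprefixed libraries. DESeq2 called 6, and 3 to 12 with 1 library left out: without WT3 these were Flg2, Krt79 and Krtdap, without WT5 Flg2, Krt79, Krtdap and Sbsn, without WT1 11 genes and without WT4 12. The member median of -2.73, over 38 genes, was -7.34 in edgeR and -7.00 in DESeq2. It was -5.63 within the unprefixed libraries, over 24 tested genes, and -7.25 to -1.97 with 1 library left out, over 22 to 38. Without WT2, WT3 and WT5 it was -0.11 in limma, -0.12 in DESeq2 and -0.11 in edgeR, over only 9 genes. Medians over fewer genes are not like for like with -2.73. With all libraries, limma gave the same 9 genes differences from -2.66 (Krt10) to -0.18 (Tgm1). The replicate numbers do not pair the libraries (correlations of deviations from -0.229 to 0.518), and with the replicate number as a block limma called 1 gene and 0 members, with a median of -2.73.

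The sign turned to higher in KO for these genes. Without WT2, WT3 and WT5, in limma, DESeq2 and edgeR, Asprv1 was at 1.65, 1.915 and 1.92, Krt17 at 0.68, 0.88 and 0.89, Sbsn at 0.19, 0.24 and 0.25, Tgm1 at 0.15, 0.047 and 0.059, and Lgals7 at 0.059 and 0.0699 in DESeq2 and edgeR. Without WT3 alone, limma gave 0.00148 for Asprv1, 0.044 for Krt17 and 0.22 for Tgm1, and DESeq2 gave 0.0405 for Krt17 and 0.16 for Tgm1. With 1 library left out, over limma and DESeq2, Asprv1 ran from -2.31 to 0.00148, Krt17 from -3.24 to 0.044 and Tgm1 from -0.67 to 0.22. Tgm1 was also at 0.13 with the prefix as a term and 0.36 within the unprefixed libraries. The cause was not tested. Over members and alternatives, 1102 differences kept sign and side of the threshold, 81 became called and 16 turned. Members at 0 reads in KO are known only to lie below 2.62 to 4.22 normalized counts, which is what 3 reads are worth there.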
